A study of Mus musculus with 18 samples.

Results

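Goblet cells of the intestinal epithelium were followed through 10 genes for what these cells secrete or need for secretion, namely Muc2, Fcgbp, Clca1, Zg16, Tff3, Agr2, Spink4, Tpsg1, Ccl6 and Ccl9. The genes were taken by symbol from the tables of the 3 time points, and 9 of the 10 were measured in all 18 libraries. Muc2 was not analysed here. In all, 17759 genes were listed for crypts, 17423 for day 1 and 17612 for day 3. RNA came from duodenal crypts of 3 wild-type mice (WT, Mtgr1+/+) and 3 mice labelled Mtgr1-/-, a global knockout of the corepressor gene Mtgr1. Each mouse gave crypts at day 0, enteroids cultured for 24 h (day 1) and enteroids cultured for 72 h (day 3), so that each of the 6 groups held 3 libraries. Enteroids are small intestinal organoids grown from crypts in a gel. Both genotypes grew in the same medium with EGF, Noggin and R-spondin, and the mice were male and female littermates aged 8 to 12 weeks. Over the 16 libraries whose whole reads could be recovered from the deposited values, 22035316 to 28621990 reads lay on listed genes.

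Mtgr1, listed under its symbol Cbfa2t2, was checked first. Its normalized counts in crypts were 614, 523 and 595 in WT against 697, 466 and 534 with the null label. They were 788, 710.2 and 757 in WT against 1160.3, 1008 and 789 with the null label at day 1, and 869, 774 and 883 in WT against 892, 976 and 766 with the null label at day 3. The genotypes overlapped in crypts and at day 3, and at day 1 all 3 null-labelled libraries were higher (adjusted p = 0.0557, limma). The lowest of these stood at 788.6 and the highest WT library at 788.3. In CPM (reads of a gene scaled to the reads on listed genes of its library) the genotypes overlapped at day 1 too. Null-labelled library 3 was at 25.3 CPM there, against 31.0 to 32.0 in WT. These gene-level counts do not show which exons were read, so the genotype is given below as the label of each library. As a check of the tissue, 8 epithelial cell markers summed to 7131 to 8449 CPM in WT crypts and 9286 to 9972 in null-labelled crypts, against 5.84 to 27.5 and 1.84 to 5.79 for 8 stromal markers. Mouse 2 labelled null stood apart from its group. Its crypts held 2180.5 CPM of 14 Paneth cell markers, against 82.7 and 55.6 in the other null-labelled crypts and 5753 to 7708 in WT crypts. WT crypt library 3 held 359.7 CPM of 16 immune cell markers, against 64.0 and 63.5 in the other WT crypts.

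Goblet cells store densely packed mucin in granules and release it as the gel that covers the epithelium. The transcription factors Atoh1 and then Spdef lead progenitors into this lineage, and the mucin must be folded in the endoplasmic reticulum and decorated with O-linked sugars before it is stored. The gel contains further secreted proteins. Fcgbp is a large mucus protein that binds to the mucin network, Clca1 is a metalloprotease that processes it, Zg16 is a lectin-like protein that binds bacterial cell walls, and Tff3 is a trefoil peptide of mucosal repair. Agr2 is a disulfide isomerase needed to make the gel-forming mucin, Spink4 is a Kazal-type protease inhibitor, Tpsg1 is a transmembrane tryptase, and Ccl6 and Ccl9 are CC chemokines.

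RefSeq promoter entries of build GRCm38.p6 were matched for 5 of the 9 measured genes, Fcgbp, Agr2, Tpsg1, Ccl6 and Ccl9. Those of Fcgbp, Agr2, Ccl6 and Ccl9 are shown. A window was kept only for a gene with a single entry that left enough bases before its GENCODE start, which left out Tpsg1. All 5 genes were lower with the null label. Of the neighbors Ccl6 and Ccl9 on chromosome 11, Ccl6 lost more of its WT level over culture time. Each sequence runs 5′ to 3′ on the strand of its gene and holds the 250 bases before the RefSeq transcription start, or 232 for Agr2, where GENCODE begins the gene 18 bases earlier. Capitals mark matches on either strand to 5 motifs, the E-boxes CAGCTG and CAGATG, the forkhead motifs TATTTAC and TGTTTAC, and TATAAA.
Fcgbp promoter (chr7:28070986-28071235, plus strand): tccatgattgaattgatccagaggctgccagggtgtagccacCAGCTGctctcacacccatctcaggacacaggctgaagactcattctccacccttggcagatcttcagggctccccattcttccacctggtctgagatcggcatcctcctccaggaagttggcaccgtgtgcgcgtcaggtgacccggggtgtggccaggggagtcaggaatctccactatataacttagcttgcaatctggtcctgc
Agr2 promoter (chr12:35992675-35992906, plus strand): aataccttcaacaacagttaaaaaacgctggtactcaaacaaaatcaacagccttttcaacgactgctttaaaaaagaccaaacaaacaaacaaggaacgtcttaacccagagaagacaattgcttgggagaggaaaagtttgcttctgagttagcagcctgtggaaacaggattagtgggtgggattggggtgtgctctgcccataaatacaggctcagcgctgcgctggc
Ccl6 promoter (chr11:83593088-83593337, minus strand): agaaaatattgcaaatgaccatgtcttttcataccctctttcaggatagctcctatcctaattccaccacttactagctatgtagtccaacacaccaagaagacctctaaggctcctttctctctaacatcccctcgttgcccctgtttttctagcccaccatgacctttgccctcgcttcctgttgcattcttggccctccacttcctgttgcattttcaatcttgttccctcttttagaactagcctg
Ccl9 promoter (chr11:83578637-83578886, minus strand): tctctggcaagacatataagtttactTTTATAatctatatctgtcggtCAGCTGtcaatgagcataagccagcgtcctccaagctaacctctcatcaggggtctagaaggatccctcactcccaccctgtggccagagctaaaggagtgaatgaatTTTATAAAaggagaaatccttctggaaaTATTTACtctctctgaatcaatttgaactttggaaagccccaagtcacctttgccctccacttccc

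The Fcgbp window held 1 CAGCTG, from 208 to 203 bases before the start. The Ccl9 window held 1 CAGCTG (202 to 197 bases before the start), 1 TATTTAC (66 to 60 bases) and 3 matches to TATAAA, of which 1 on each strand overlapped. No match was found in the Ccl6 and Agr2 windows. Of 32851 promoter windows of 250 bases, 13.0% held CAGCTG, 14.4% CAGATG, 2.73% TATTTAC, 3.17% TGTTTAC and 12.4% TATAAA. The longest stretch that the Ccl6 and Ccl9 windows shared was 13 bases, and their gene bodies lie 9.245 kb apart. A match describes letters only.

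All 9 measured goblet genes were lower in the null-labelled libraries than in WT at every time point. In crypts, the null-labelled means lay between 3.05% and 5.90% of the WT mean, at day 1 between 2.24% and 8.25%, and at day 3 between 3.65% and 38.3%. Genotypes were compared with limma on log2(normalized count + 1), two-sided. Only genes averaging 10 or more entered, and the Benjamini-Hochberg adjustment ran over every gene tested at that time point. Fold changes on this scale understate those of low genes. In crypts 9 of 9 genes passed an adjusted p of 0.05, all of them lower, where 3.15% of the 12980 tested genes were called lower. At day 1 it was 9 of 9 against 28.9% of 12587, and at day 3 9 of 9 against 29.1% of 12782. No null-labelled library reached the lowest WT library for any of the 9 genes at any time point, a pattern that held for 13.5% of all tested genes of the crypt libraries, 33.9% of those at day 1 and 34.2% of those at day 3. The median log2 fold change of the 9 genes was -4.98, -4.50 and -3.61 over the 3 time points, beside 0.0076, -0.008 and 0.0026 over all tested genes. At least 8-fold falls were called for 9 of the 9 genes in crypts, where 1.15% of tested genes fell that far, for 9 at day 1 (2.11%) and for 6 at day 3 (2.02%). In these bulk libraries, fewer goblet cells and less RNA of a gene per goblet cell cannot be told apart. Dividing by library totals in place of the deposited factors put the median log2 fold change of all genes at -0.33 at day 1 and -0.20 at day 3 and turned no direction of the 9 genes. Separate mice are the replicates, and p-values rest on 3 against 3 libraries.

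**Figure D1:**
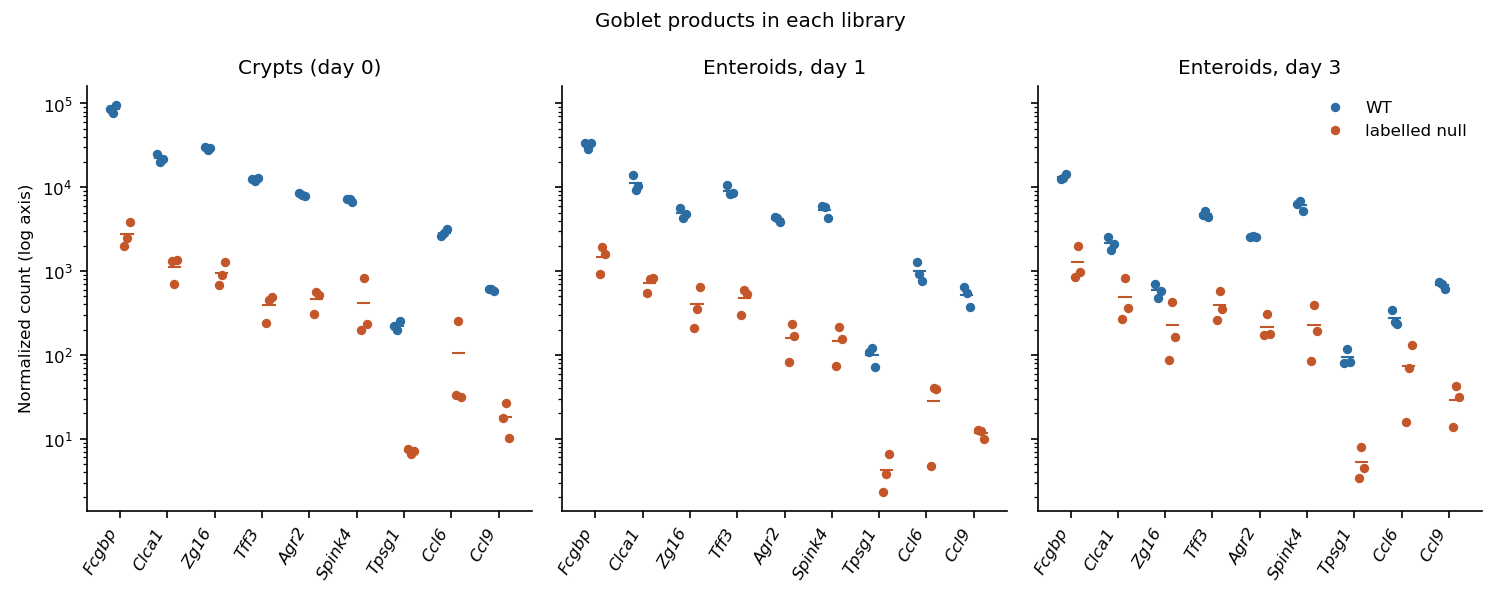
Normalized counts of the 9 goblet genes, on a log axis, in crypts, day 1 and day 3 enteroids. Each point is a library (3 WT in blue, 3 labelled null in orange) and each short line the group mean. The 2 genotypes do not overlap for any gene, and the gap is narrowest for Zg16 at day 3, where the highest null-labelled library stood at 430.5 and the lowest WT library at 480.1.

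Among the proteins of the mucus gel, Fcgbp (ENSMUSG00000047730.17, chromosome 7, 28071236 to 28120862, plus strand, GRCm38) had the highest counts of the 9 genes. Its normalized counts in crypts were 86319, 76088 and 95027 in WT against 2016, 2504 and 3805 with the null label, 30.9-fold lower on the means. At day 1 they were 34095, 28938 and 33538 in WT against 911, 1965 and 1579 with the null label, and at day 3 12465, 12894 and 14310.4 in WT against 844, 2015 and 963 with the null label. In CPM, WT kept 40.0% of its crypt level at day 1, and within each time point all null-labelled libraries lay below all WT libraries. The log2 fold change was -5.00 (SE 0.23, adjusted p = 0.000181, limma) in crypts, -4.50 (SE 0.25, adjusted p = 3.58e-05) at day 1 and -3.48 (SE 0.28, adjusted p = 5.10e-05) at day 3. Null-labelled libraries thus held 3.23%, 4.61% and 9.64% of the WT mean.

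Clca1, the mucus-processing metalloprotease (ENSMUSG00000028255.6, chromosome 3, 145003817 to 145032776, minus strand), showed normalized counts of 24622, 19928 and 21787 in WT against 1308, 694 and 1368 with the null label in crypts. At day 1 the counts were 13988, 9370.2 and 10397 in WT against 549, 809 and 833 with the null label. By day 3 they were 2564, 1764 and 2089 in WT against 266, 828 and 367 with the null label. The null-labelled mice differed most from each other at day 3, where library 2 was highest and the WT libraries had dropped to 10.3% of their crypt level in CPM. The genotype difference was -4.36 on the log2 scale in crypts (SE 0.26, adjusted p = 0.000354, limma), -3.95 at day 1 (SE 0.20, adjusted p = 2.46e-05) and -2.29 at day 3 (SE 0.37, adjusted p = 0.00122).

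Zg16 (ENSMUSG00000049350.6, chromosome 7, 127050156 to 127087328, minus strand) lost most of its WT level in culture, as given in CPM further on. Crypt counts were 30641, 27631 and 29571 in WT against 688, 909 and 1269 with the null label. At day 1 they were 5695, 4310.2 and 4757 in WT against 211, 355 and 652 with the null label, and at day 3 704, 480.1 and 587 in WT against 86.5, 430.5 and 162 with the null label. The WT libraries were tightly grouped in crypts, and by day 3 null-labelled library 2 stood just under the lowest WT library. Null-labelled means were 3.26%, 8.25% and 38.3% of WT, or log2 fold changes of -4.98 (95% interval -5.48 to -4.48, adjusted p = 0.000148, limma), -3.74 (-4.56 to -2.91, adjusted p = 0.000215) and -1.67 (-2.81 to -0.54, adjusted p = 0.0192). The day 3 call was lost when WT library 1, WT library 3 or null-labelled library 3 was left out, with log2 fold changes of -1.54, -1.67 and -1.59 (adjusted p = 0.0664, 0.0548 and 0.0502, limma). Without null-labelled library 2 it was -2.29 (adjusted p = 0.000255).

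The trefoil peptide gene Tff3 (ENSMUSG00000024029.4, chromosome 17, 31125306 to 31129646, minus strand) had crypt counts of 12604, 11937 and 13012 in WT against 241, 449 and 489 with the null label, 31.9-fold lower on the means. Day 1 counts were 10560.2, 8234 and 8453 in WT against 299.7, 596 and 537 with the null label. Day 3 counts were 4669, 5168 and 4402 in WT against 262, 574 and 351 with the null label. Null-labelled levels had mean CPM of 15.7 ± 4.89, 16.3 ± 6.23 and 14.1 ± 4.82 (SD, n = 3) over the 3 time points, against 492 ± 19.96, 380.1 ± 37.9 and 198 ± 16.7 in WT. Log2 fold changes were -5.05 (SE 0.25), -4.30 (SE 0.25) and -3.65 (SE 0.25) in the same order, with adjusted p of 0.000186, 3.80e-05 and 2.23e-05 (limma).

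Agr2, the isomerase of the endoplasmic reticulum that serves mucin folding (ENSMUSG00000020581.11, chromosome 12, 35992907 to 36004087, plus strand), had crypt counts of 8591, 8201 and 7765 in WT against 304, 569.8 and 518 with the null label. At day 1 they were 4376, 4297 and 3872 in WT against 82.8, 233 and 167 with the null label, and at day 3 2540.1, 2636 and 2579 in WT against 171, 304 and 179 with the null label. WT libraries differed little from each other at day 3, with a coefficient of variation of 1.87%. Of the WT mean, 5.67%, 3.85% and 8.43% were left in the null-labelled libraries. The difference on the log2 scale was -4.19 (SE 0.23, adjusted p = 0.000258, limma), -4.81 (SE 0.33, adjusted p = 7.48e-05) and -3.61 (SE 0.20, adjusted p = 1.12e-05).

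Spink4, the Kazal-type inhibitor (ENSMUSG00000028415.4, chromosome 4, 40920052 to 40931395, plus strand), kept 92.5% of its WT crypt level in CPM at day 3. It kept less on the other scaling given further on. Crypt counts were 7252, 7324 and 6704 in WT against 197, 827 and 233 with the null label. Day 1 counts were 5903, 5842 and 4281 in WT against 73.5, 215 and 153 with the null label, and day 3 counts 6377, 6912 and 5241 in WT against 84.2, 398 and 194 with the null label. Mouse 2 was the highest of the null-labelled mice at all 3 time points, and in crypts it was the library with the high Paneth marker sum given above, whose part in its Spink4 count was not tested. Log2 fold changes were -4.39 (95% interval -5.58 to -3.21), -5.29 (-6.10 to -4.47) and -5.03 (-6.10 to -3.96), with adjusted p of 0.00568, 7.16e-05 and 9.13e-05 (limma). Without null-labelled crypt library 2, the crypt difference was -5.04 (adjusted p = 2.26e-05, limma). On recovered reads, without WT crypt library 2, the quasi-likelihood test of edgeR gave -4.07 with an adjusted p of 0.0544.

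Tpsg1, the tryptase gene (ENSMUSG00000033200.16, chromosome 17, 25369273 to 25374442, plus strand), had the lowest level per kb of the 9 genes in every group. Crypt counts were 219, 198 and 256 in WT against 7.53, 6.66 and 7.11 with the null label. At day 1 they were 108, 122 and 72.1 in WT against 2.33, 3.79 and 6.62 with the null label, and at day 3 79.8, 118 and 82.3 in WT against 3.41, 7.95 and 4.49 with the null label. The null-labelled values rest on 2 to 8 reads per library. The fold on the means was 31.6, 23.7 and 17.7 over the 3 time points, and the log2 fold changes were -4.79 (SE 0.25), -4.32 (SE 0.41) and -3.95 (SE 0.35), with adjusted p of 0.000235, 0.000209 and 7.45e-05 (limma). Mast cell proteases, for comparison, had higher means in the null-labelled crypts, at 886 against 91.3 for Mcpt1 and 426 against 44.4 for Mcpt2, although 0 of 14 tested immune markers passed the test there.

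The chemokine Ccl6 (ENSMUSG00000018927.3, chromosome 11, 83587882 to 83593087, minus strand) had the widest spread of the 9 genes among null-labelled mice in crypts and at day 1, with coefficients of variation of 120.1% and 72.4%. Crypt counts were 2601, 2835 and 3172 in WT against 33.0, 251 and 31.5 with the null label. Counts at day 1 were 1294, 914 and 766 in WT against 4.66, 40.8 and 39.7 with the null label, and at day 3 341, 249 and 231 in WT against 15.9, 70.6 and 132 with the null label. The highest null-labelled crypt library was again that of mouse 2, and at day 3 it was that of mouse 3, whose immune marker sum was 79.4 CPM against 43.6 and 46.2 in the other 2. The part of these cells in Ccl6 was not tested. Log2 fold changes were -5.45 (-7.23 to -3.68), -5.51 (-7.17 to -3.85) and -2.31 (-3.80 to -0.83), each with its 95% interval, and adjusted p was 0.0107, 0.000654 and 0.0152 (limma). The crypt call was lost without WT library 1 (-5.52, adjusted p = 0.0535, limma), without WT library 2 (-5.46, adjusted p = 0.0532) and with edgeR on recovered reads, which leaves out WT library 2 (-4.78, adjusted p = 0.0812), and without null-labelled library 2 it was -6.43 (adjusted p = 2.26e-05). The day 3 call was lost without WT library 1 (-2.15, adjusted p = 0.0549, limma) and with DESeq2, which leaves out null-labelled library 2 (-1.89, adjusted p = 0.0945). Single null-labelled libraries also moved the size, which was -4.55 at day 1 without library 1 (adjusted p = 0.00014, limma), and -1.47 without library 1 and -2.96 without library 3 at day 3 (adjusted p = 0.00316 and 0.00373).

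Ccl9, the neighbor of Ccl6 (ENSMUSG00000019122.8, chromosome 11, 83572919 to 83578636, minus strand), had a coefficient of variation of 1.98% in WT crypts. Crypt counts were 605, 606 and 585 in WT against 17.9, 26.6 and 10.2 with the null label. Day 1 counts were 647, 548 and 369 in WT against 12.8, 12.3 and 9.93 with the null label, and day 3 counts 739, 701 and 612 in WT against 13.7, 42.8 and 31.4 with the null label. WT crypt library 3, with the high immune marker sum, had the lowest Ccl9 and the highest Ccl6 count of the WT crypts, and the part of these cells in either was not tested. The difference was 32.8-fold in crypts, 44.6-fold at day 1 and 23.4-fold at day 3. On the log2 scale it was -5.06 (SE 0.33, adjusted p = 0.000621, limma), -5.33 (SE 0.25, adjusted p = 1.81e-05) and -4.63 (SE 0.36, adjusted p = 4.01e-05).

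Next, the question was whether the genotype difference itself changed in culture. One limma model of the 18 libraries, which took each mouse as random, gave the test, and a positive value means a smaller deficit at the later time. Between crypts and day 3 the deficit of 4 of the 9 genes shrank, all 4 of them proteins of the mucus gel, where 16.3% of 12314 genes were called in this direction. Zg16 changed by 3.31 on the log2 scale (SE 0.64, adjusted p = 0.0028, limma), Clca1 by 2.07 (SE 0.48, adjusted p = 0.00696), Fcgbp by 1.51 (SE 0.43, adjusted p = 0.018) and Tff3 by 1.40 (SE 0.42, adjusted p = 0.0213). For Ccl6 the change was 3.14 (95% interval 0.60 to 5.67, adjusted p = 0.0566, limma), and it passed with the mouse block (adjusted p = 0.0149), with a pseudocount of 8 (adjusted p = 0.0266) and without null-labelled crypt library 2 (4.12, adjusted p = 0.0175), day 1 library 1 (adjusted p = 0.0339), day 3 library 1 (3.98, adjusted p = 0.0158) or day 3 library 2 (3.21, adjusted p = 0.0434). Agr2 (-0.34 to 1.49), Spink4 (-2.24 to 0.97), Tpsg1 (-0.16 to 1.84) and Ccl9 (-0.64 to 1.49), given by their 95% intervals, did not pass either, except Tpsg1 with a pseudocount of 8 (1.01, adjusted p = 0.0251, limma). Without the 3 libraries of mouse 2 labelled null, a setting chosen after the data were seen, Zg16 changed by 2.67, Clca1 by 1.29, Fcgbp by 1.08 and Tff3 by 1.22 (adjusted p = 0.00301, 0.00625, 0.0275 and 0.024, limma), and Ccl6 passed as well (3.92, adjusted p = 0.0166). Leaving out only its day 3 library put Zg16 at 2.68 (adjusted p = 0.000487, limma). Tff3 missed the threshold without null-labelled crypt library 1 (1.07, adjusted p = 0.0536). Between crypts and day 1 no gene of the 9 passed in limma and none had an unadjusted p below 0.05, where 41.0% of 12241 genes were called in either direction. With the mouse within genotype as a fixed block, 4 of 9 passed at the same sizes, namely Tff3 (0.76, adjusted p = 0.0116, limma), Zg16 (1.24, adjusted p = 0.0489), Spink4 (-0.89, adjusted p = 0.0241) and Agr2 (-0.62, adjusted p = 0.0339). Leaving out null-labelled library 1 of day 1 brought in Tff3 (1.07, adjusted p = 0.0476, limma), and leaving out null-labelled library 2 of day 3, which enters only the shared variance, brought in Tff3 and Zg16 (adjusted p = 0.0406 and 0.0104). Between day 1 and day 3 none passed either, with 5 of 9 at an unadjusted p below 0.05 (Zg16 2.06, Ccl6 3.19, Clca1 1.66, Agr2 1.20 and Fcgbp 1.02), where 0.0322% of 12413 genes were called. Agr2 passed with the block (1.20, adjusted p = 0.0402, limma), and Agr2 (1.26, adjusted p = 0.0305) and Clca1 (1.28, adjusted p = 0.0186) passed without mouse 2 labelled null.

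**Figure D2:**
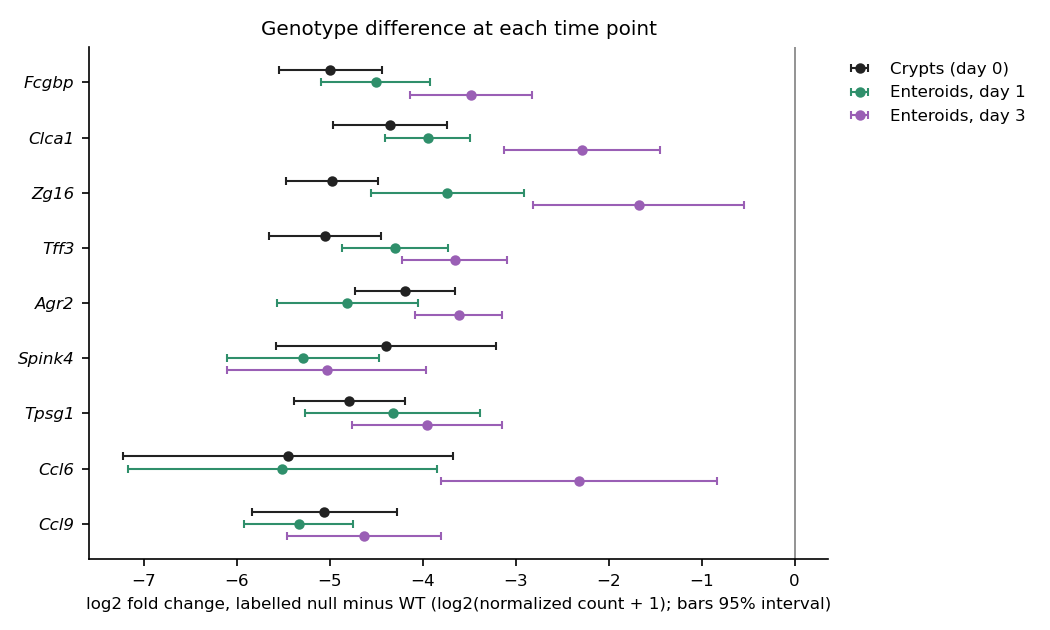
Log2 fold change of each gene (labelled null minus WT, on log2(normalized count + 1)) at each of the 3 time points, from 3 against 3 libraries. Points are estimates and bars 95% intervals of limma. All intervals lie below 0, and the day 3 points of Zg16 (-1.67), Clca1 (-2.29) and Ccl6 (-2.31) lie nearest to it.

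Levels over culture time were compared in CPM of the library total within each mouse, as a description with no test, since the 3 tables were normalized separately. In WT, Zg16 fell the furthest, from 1152 ± 68.6 CPM in crypts to 206 ± 20.8 at day 1 and 24.7 ± 4.93 at day 3 (SD, n = 3), so that 2.14% of its crypt level was left. Ccl6 and Clca1 came next, with 10.2% and 10.3% left at day 3. Fcgbp kept 16.4%, Agr2 33.5%, Tff3 40.3% and Tpsg1 44.3%. For these 7 genes every WT day 3 library lay below every WT crypt library, a pattern found for 19.5% of 12145 genes. Spink4 and Ccl9 did not show this pattern. Spink4 went from 279 ± 16.6 to 258 ± 37.1 CPM, lower in 3 of 3 mice but with overlapping libraries, and Ccl9 from 23.5 ± 0.770 to 28.6 ± 3.04, with every day 3 library above every crypt library, as for 52.4% of genes. On TMM scaling over all 18 libraries, the Ccl9 change was -0.04 instead of 0.27 on the log2 scale, and it was lower in 2 of 3 mice. The Spink4 change was then -0.43 instead of -0.12. The falls of the other 7 genes in WT were also larger on that scaling, with Zg16 at -5.87 instead of -5.56. Null-labelled crypts started lower. There, Zg16 went from 37.9 ± 9.17 to 7.96 ± 5.90 CPM, Fcgbp from 110.0 ± 28.8 to 45.4 ± 19.9, Clca1 from 44.7 ± 13.6 to 17.3 ± 9.51 and Agr2 from 18.6 ± 5.67 to 7.81 ± 2.17. These 4 genes were lower at day 3 than in crypts in each of the 3 null-labelled mice without overlap, a pattern found for 15.2% of genes. On TMM scaling Clca1 was lower in 2 of the 3. Agr2, Spink4, Ccl6 and Ccl9 were higher at day 3 than at day 1 in each null-labelled mouse, by 0.62 ± 0.59, 0.59 ± 0.16, 1.55 ± 0.76 and 1.29 ± 0.82 on the log2 scale (SD, n = 3), and of these 4 only the Ccl9 libraries of the 2 days did not overlap. Over all genes, 28.2% were higher in each null-labelled mouse, 20.7% did not overlap, and the median change was 0.20. On TMM scaling the 4 changes were 0.44, 0.40, 1.36 and 1.11. Ccl6 went from 0.976 ± 0.724 to 2.63 ± 2.14 CPM and Ccl9 from 0.395 ± 0.0693 to 1.04 ± 0.473 CPM, where the day 1 value of Ccl9 rests on 9 to 13 reads per library.

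**Figure D3:**
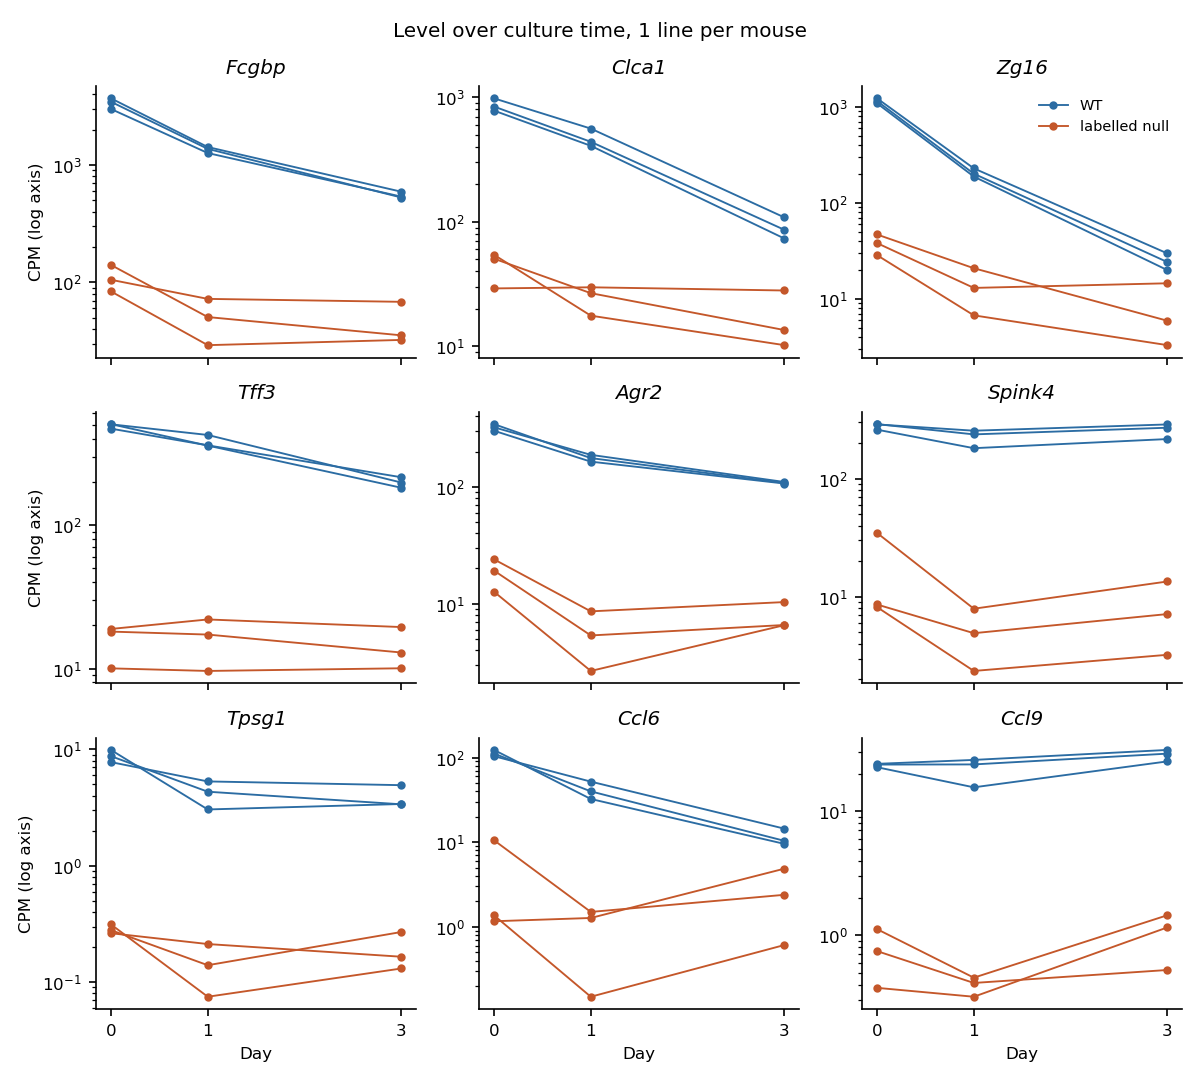
CPM of each gene (log axis) against day of culture, with 1 line per mouse, WT in blue and labelled null in orange. The WT lines of Fcgbp, Clca1, Zg16 and Ccl6 run down steeply, those of Spink4 and Ccl9 change less (Ccl9 from 23.5 to 28.6 CPM on the means), and the WT Zg16 mean ends at 24.7 CPM.

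Together the 9 genes took 0.608% to 0.692% of the reads on listed genes in WT crypts, 0.273% to 0.308% at day 1 and 0.124% to 0.129% at day 3, against 0.02002% to 0.0286%, 0.00689% to 0.0156% and 0.00670% to 0.0158% in the null-labelled libraries. Their mix shifted in WT. Fcgbp remained the largest part, at 50.8% ± 2.30 of the summed CPM in crypts and 43.4% ± 3.60 at day 3 (SD, n = 3), whereas Zg16 went from 17.4% ± 0.663 to 1.94% ± 0.380 and Spink4 from 4.23% ± 0.484 to 20.2% ± 2.55. At day 3 the null-labelled mix held 44.0% ± 4.03 Fcgbp, 6.98% ± 2.14 Zg16, 16.1% ± 1.39 Clca1 and 7.16% ± 2.03 Spink4, where WT held 7.02% ± 1.36 Clca1. To compare levels between genes, CPM was divided by the merged exon length in kb. In WT crypts Tff3 (998 ± 40.5 CPM per kb) and Zg16 (916 ± 54.6) led, with overlapping libraries, followed by Spink4 (585 ± 34.8), Fcgbp (321 ± 33.5), then Agr2 (249 ± 16.2) and Clca1 (230.3 ± 27.0), which overlapped, Ccl6 (62.8 ± 5.38), Ccl9 (7.73 ± 0.253) and Tpsg1 (6.35 ± 0.765). At WT day 1 the order was Tff3 (771), Spink4 (470.1) and Zg16 (164), then Agr2, Fcgbp and Clca1, of which neighbors overlapped (136, 129 and 124), and last Ccl6 (23.1), Ccl9 (7.16) and Tpsg1 (3.05). By day 3 Spink4 (541) stood above Tff3 (402) in WT, and Zg16 (19.6) had moved below Agr2 (83.6) and Fcgbp (52.6) and overlapped Clca1 (23.7). Ccl9 (9.38) was then above Ccl6 (6.38), and Tpsg1 remained last (2.81). In null-labelled crypts Spink4 (36.0 CPM per kb), Tff3 (31.8) and Zg16 (30.2) overlapped at the top, as did Agr2 (14.4), Clca1 (11.8) and Fcgbp (10.5) below them, and Ccl6, Ccl9 and Tpsg1 were at 2.43, 0.245 and 0.206. In null-labelled enteroids Tff3 led at day 1 (33.0) and at day 3 (28.7), and 6 of 8 neighbor pairs at day 1 and 7 of 8 at day 3 overlapped.

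**Figure D4:**
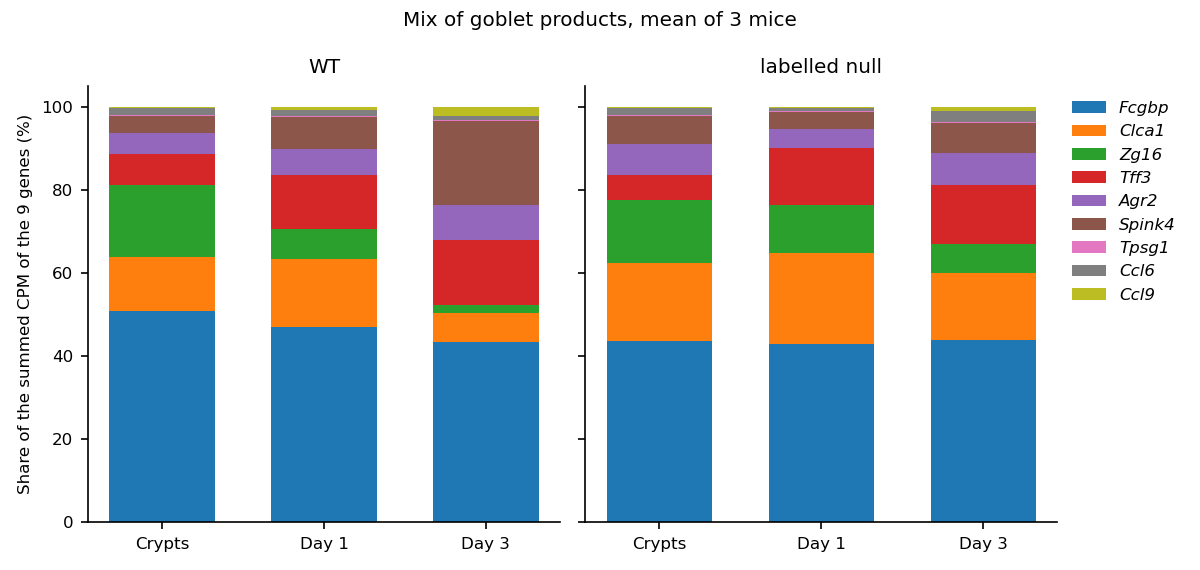
Share of each gene in the summed CPM of the 9 genes (%), as the mean of 3 mice, in WT (left) and labelled null (right), in crypts and at days 1 and 3. In WT the Zg16 part shrinks from 17.4% to 1.94% and the Spink4 part grows from 4.23% to 20.2%.

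The median coefficient of variation over the 9 genes was 5.21% in WT crypts, 17.2% in WT at day 1 and 13.8% in WT at day 3, against 33.3%, 46.9% and 50.6% in the null-labelled groups. Tpsg1 in crypts (6.17% against 13.0% in WT) and Ccl9 at day 1 (13.3% against 27.0%) went the other way. At day 3 the null-labelled libraries kept one order across genes. Library 1 was the lowest for 9 of 9 genes and library 2 the highest for 8 of 9, all but Ccl6. The Paneth marker sums of these 3 libraries were 76.1, 343 and 141 CPM, with library 2 highest as well, and their part in the order was not tested. WT library 1 was highest for 8 of 9 genes at day 1, all but Tpsg1. Over the 9 WT libraries, log2(CPM + 1) of Fcgbp and Zg16 had a Pearson r of 0.99, and of Zg16 and Ccl9 -0.44. These points share libraries and time points, and r is a description only.

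The regulators of the goblet lineage moved in the same libraries. Of 10 goblet transcription factors, all tested, 5 were lower in null-labelled crypts and none passed as higher. At days 1 and 3 it was 8 lower and 2 higher. Over all tested genes, 1.58% were called higher in crypts, 30.0% at day 1 and 29.9% at day 3, beside the shares called lower given above. The list median was -1.74, -2.996 and -2.13 on the log2 scale. Atoh1, which commits progenitors to secretory fates, had normalized counts of 290.4 ± 47.4 in WT and 12.4 ± 7.47 in null-labelled crypts (SD, n = 3, adjusted p = 0.00568, limma), with log2 fold changes of -4.66, -4.83 and -4.43 over the 3 time points. Spdef, which drives goblet and Paneth maturation, had -3.86, -5.10 and -3.98, and Gfi1, a zinc finger factor of secretory cells, -2.61, -4.37 and -3.71, all past the threshold. Gfi1 varied widely among WT crypts, at 120 ± 81.8 against 16.2 ± 1.04 in null-labelled crypts (SD, n = 3). Creb3l1 (-2.04, -3.31 and -2.22) and Creb3l4 (-3.03, -3.75 and -2.63), factors released from the endoplasmic reticulum membrane, also passed at each time point. The forkhead genes were called in enteroids but not in crypts, although the difference between time points was not tested for them. Foxa1 was at -1.20 (adjusted p = 0.0959, limma), -1.51 and -1.04, Foxa2 at -1.45 (adjusted p = 0.154), -2.68 and -2.03, and Foxa3 at -1.15 (adjusted p = 0.242), -2.15 and -1.97. Klf4, a zinc finger factor of goblet and other differentiated cells, was higher with the null label by 1.16 at day 1, where libraries overlapped, and by 1.45 at day 3. In crypts it was at -0.43 (adjusted p = 0.471, limma). In these gene lists, rises and falls compare the null label with WT at the same time point. Xbp1, the factor of the unfolded protein response, was at 0.06, 0.29 and 0.26. Its day 1 direction turns with library totals (-0.030) and with quantile normalization (-0.0056). With library totals, where 44.4% of tested genes were called lower and 17.5% higher at day 1 and 39.8% and 21.6% at day 3, the 8 falls remained and the rises of Klf4 at day 1 (0.84, adjusted p = 0.062, limma) and Xbp1 at day 3 (0.05, adjusted p = 0.496) lost the call, which left 0 and 1 higher.

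Among 22 other goblet cell genes, 18 of 22 tested were lower in null-labelled crypts and none passed as higher (median -2.82). At day 1 it was 19 lower and 1 higher of 21 (median -2.61), and at day 3 16 lower and 2 higher of 21 (median -1.80). The shares of all tested genes were 3.15% lower and 1.58% higher in crypts, 28.9% and 30.0% at day 1, and 29.1% and 29.9% at day 3. The largest falls in crypts were those of Pla2g10, a secreted phospholipase (-4.40), Reg4, a secreted lectin (-4.27), and Sytl2, an effector of granule docking (-4.25). Reg4 had 1368 ± 772 in WT and 95.8 ± 103 in null-labelled crypts, and 3855 ± 667 against 53.1 ± 41.0 at day 1 (SD, n = 3). At day 1 Reg4 (-6.41), Hepacam2 (-4.55) and Ramp1 (-4.40) fell furthest, and at day 3 Reg4 (-4.60), Hpd (-4.25) and Hepacam2 (-3.71). Guca2a, the guanylin precursor, rose at day 1 (1.13) and day 3 (1.91), and Bace2 at day 3 (0.67), the last not with library totals (0.47, adjusted p = 0.0649, limma). The sum of this list in CPM was 719.6 to 811 in WT and 197 to 215 in null-labelled crypts, and 684 to 727 against 299 to 340.2 at day 3.

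The machinery that handles mucins was less uniform. Of 18 tested mucin O-glycosylation enzymes, 4 were lower in crypts and none passed as higher. At day 1 it was 3 lower and 6 higher, and at day 3 it was 3 and 8, with list medians of -0.06, 0.16 and 0.26. With library totals the counts were 2 lower in crypts, 7 lower and 5 higher at day 1, and 5 lower and 4 higher at day 3. The balance at both days was thus the opposite. As shares of the list, the deposited factors gave 16.7% lower and 33.3% higher at day 1 and 16.7% and 44.4% at day 3. Over all tested genes these were 28.9% and 30.0%, and 29.1% and 29.9%. With library totals the list shares were 38.9% and 27.8%, and 27.8% and 22.2%. All tested genes moved in the same way, to 44.4% and 17.5%, and 39.8% and 21.6%. Galnt12, which starts O-glycans, fell at all 3 time points (-1.81, -2.48 and -1.60), as did the sialyltransferase gene St3gal1 (-3.25, -2.001 and -0.82). St3gal1 varied widely among WT crypts, at 502 ± 350 against 45.1 ± 10.7 in null-labelled crypts (SD, n = 3). St3gal6 (-0.60) was the third largest fall in crypts, a call lost with library totals (adjusted p = 0.0601, limma), and the fucosyltransferase gene Fut2 fell at day 1 (-1.95) and day 3 (-1.34). The largest rises were those of Gcnt1, a branching enzyme (1.95 at day 1 and 3.59 at day 3), B4galnt3 at day 1 (1.20) and B3gnt3 (0.93 and 0.99). B4galnt3 was also higher at day 3 (0.74), a call lost with library totals (0.54, adjusted p = 0.0868, limma). Of 24 genes of endoplasmic reticulum folding and export, 2 were lower and 1 higher in crypts, 7 and 5 at day 1, and 8 and 4 at day 3, with medians of -0.16, 0.01 and -0.15. As shares of the list, these were 29.2% lower and 20.8% higher at day 1 and 33.3% and 16.7% at day 3, beside 28.9% and 30.0%, and 29.1% and 29.9%, of all tested genes. With library totals the counts were 13 lower and 4 higher at day 1 and 15 and 1 at day 3. Ern2, the stress sensor of mucus-secreting cells, had 359 ± 19.5 in WT and 18.4 ± 2.21 in null-labelled crypts (SD, n = 3), with log2 fold changes of -4.22, -4.52 and -3.32, all past the threshold. The disulfide isomerase gene Txndc5 fell at each time point too (-1.19, -1.15 and -0.98), Ergic1 at day 1 (-0.997) and day 3 (-0.70), and Pdia5 at day 3 (-0.71). P4hb, another disulfide isomerase, rose at day 1 (1.28) and day 3 (1.00), Kdelr2 (0.67) and Tram1 (0.62) at day 1, and Fkbp11 in crypts (1.29). At day 3 Tram1 (0.30) and Kdelr2 (0.29) were the next largest rises, and both lost the call with library totals (adjusted p = 0.23 and 0.345, limma). Among the rises counted, Sec61b at day 1 (0.31) turned with library totals (-0.016) and Serp1 at day 3 (0.27) with quantile normalization (-0.026).

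Relatives of the 9 genes did not share one direction. Of 34 listed relatives, 17 were tested in crypts, with 2 lower and none passing as higher. At day 1 17 were tested, with 8 lower and 7 higher, and at day 3 16, with 7 lower and 8 higher. As shares, these were 11.8% lower in crypts, 47.1% lower and 41.2% higher at day 1, and 43.8% and 50% at day 3. Over all tested genes it was 3.15% lower in crypts, 28.9% and 30.0% at day 1, and 29.1% and 29.9% at day 3. All tested genes were thus also split between the directions at both days. Agr3, the closest relative of Agr2, fell at each time point (-4.56, -4.63 and -5.97), and so did Muc4, a transmembrane mucin (-1.59, -1.97 and -2.84). The calcium-activated chloride channel regulators split. Clca3b (-2.98 at day 1 and -2.95 at day 3) and Clca3a2 at day 3 (-3.54) fell, as Clca1 did, while Clca4a rose (3.39 and 4.10). At day 3 Clca4a stood at 109 ± 35.8 in WT and 1839 ± 261 with the null label (SD, n = 3). Reads of such close relatives may be divided between them by the quantification. Spink1 rose at day 1 (2.66) where Spink4 fell, the transmembrane mucin gene Muc3 rose at day 1 (2.25) and day 3 (2.81), and the tryptase relative Prss22 at day 3 (2.66). Tff1, the gastric trefoil peptide, was lower at day 1 (-2.59) and higher at day 3 (1.18), and the day 3 call was lost with library totals (0.99, adjusted p = 0.0731, limma). That scaling left 6 relatives higher at day 3.

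Markers of other cell types moved with genotype as well, and their part in the goblet genes was not tested. Over all tested genes, 3.15% were called lower and 1.58% higher in crypts. At day 1 it was 28.9% and 30.0%, and at day 3 29.1% and 29.9%. Of 14 Paneth cell markers, 1 was called lower in crypts and 14 at each of days 1 and 3. Their median log2 fold change was -4.70, -5.57 and -4.62 over the 3 time points, of similar size in crypts although few were called there. Mouse 2 labelled null stood apart in these crypt sums, as given above. The sum of the Paneth markers at day 3 was 5099.7, 5476 and 4308 CPM in WT. Enteroendocrine markers fell with 12 of 12 tested in crypts and at day 1 and 13 of 13 at day 3, from 301 to 506 CPM in WT crypts to 7.60 to 12.8 in null-labelled crypts. Of 8 tested tuft cell markers, 4 fell and 1 rose at day 1 and at day 3. Of 9 in crypts none fell and 1 rose, with a list median of 1.85 on the log2 scale. Library totals gave 5 falls and no rise at day 1, where 44.4% and 17.5% of all tested genes were called. In crypts they gave 2 rises. Crypt base stem cell markers were lower in 2 of 8 in crypts and 8 of 8 at each of days 1 and 3. Enterocyte markers rose in 12 of 13 at day 1 and at day 3, to 16404 to 26546 CPM against 9054 to 10299.7 in WT at day 3, with 1 called in crypts, which was lower. Immune markers summed to 16.2 to 17.4 CPM in WT and 43.6 to 79.4 in null-labelled libraries at day 3, with 4 of 10 higher. Cpa3 and Fcer1a were listed at 0 in all 3 WT libraries there. Their null-labelled means were 21.2 and 5.24 normalized counts, with the highest library at 60.6 and 15.7. A single null-labelled library thus held most of each. Stromal markers stayed at or under 11.6 CPM in all enteroids.

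The genes most like the 9 goblet genes were ranked by Pearson r of log2(CPM + 1) with the mean of the 9 over all 18 libraries, among 12136 genes. They were Galnt5 (r = 0.985), Capn9 (0.9745), Sst (0.971), Gip (0.967), Rbp7 (0.966), Kctd14 (0.961), B4galt4 (0.959), Bcas1 (0.957), Trpa1 (0.954) and Rasd2 (0.953). Galnt5, an enzyme that starts O-glycans, went from 225 to 12.8 in crypts and from 103 to 12.04 at day 3 (means of normalized counts, WT and labelled null). Sst and Gip encode enteroendocrine hormones. The 18 points share genotype and time point, and over the 9 WT libraries alone the r of these 10 genes ranged from 0.521 to 0.942 and 0 of them were among the 10 most alike.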

How the data were processed

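Bulk RNA-seq (stranded mRNA, single reads) was measured in 18 libraries from 6 mice. Per the labels and the study's methods, the authors trimmed reads with fastp 0.20.0, quantified them with Salmon 1.3.0 on GENCODE mouse transcripts (GRCm38), summed them per gene, dropped genes with almost no counts and normalized each time point separately with DESeq2 1.26.0. The deposited signal is a normalized count, a gene count divided by 1 factor per library. The deposited log2 fold change, score (test statistic) and p-value columns hold the authors' own comparisons and were not used.

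Whole reads were recovered from the values (100% whole within 0.01). In WT crypt library 2 and null-labelled day 3 library 2 the factor was too near 1 to tell, and these 2 were left out of the edgeR 4.0.16 and DESeq2 1.42.0 count tests but of no other step. Genotypes were compared with limma 3.58.1 in R 4.3.3 (moderated test with a mean-variance trend, pseudocount 1, mean of at least 10, adjusted p threshold 0.05). The change of the difference used the mouse as a random effect, with a within-mouse correlation of -0.00481. CPM scales the reads of a gene to the reads on listed genes of its library. Scripts were tested on simulated data.

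The genes and lists were chosen with earlier results of these data known. Named are the 9 genes, the transcription factors, up to 3 largest falls and rises past the threshold per list and time point, the most abundant markers, the 10 most alike genes and Cbfa2t2. Cpa3, Fcer1a and genes named again at another time point were chosen after their values were seen. Replicate numbers were checked for pairing between genotypes. Deviations of same-numbered libraries correlated at 0.116, 0.231 and 0.216 at day 1, above all pairs of unlike numbers. In crypts they correlated at 0.0764, 0.274 and 0.346, but WT library 1 and null-labelled library 2 reached 0.201. At day 3 they correlated at -0.00666, -0.00226 and -0.0156, within the range of unlike numbers. With 3 mice per genotype, this check cannot tell pairing by number from chance. Across time points the mouse itself is shared. Alternatives covered scaling, filters, pseudocounts, array weights, blocks and left-out libraries.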

Additional observations from a re-analysis of the deposited data

Results flagged for a closer look

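For 4 genes the genotype difference itself differed between crypts and day 3 by the interaction test (limma over 18 libraries, 3 mice per genotype). The deficit with the null label shrank by 3.31 on the log2 scale for Zg16 (adjusted p = 0.0028), by 2.07 for Clca1 (adjusted p = 0.00696), by 1.51 for Fcgbp (adjusted p = 0.018) and by 1.40 for Tff3 (adjusted p = 0.0213). Levels in WT fell between crypts and day 3 for all 4, to 2.14%, 10.3%, 16.4% and 40.3% of the crypt CPM, while null-labelled levels went to 21.0%, 38.6%, 41.3% and 90.3%. No group of this design held the 4 libraries needed to look for single libraries far from the others.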

How the results depend on the processing

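The 27 genotype differences (9 genes at 3 time points) were each recomputed under 18 alternatives. Of 486 values, 477 kept direction and call, 9 kept the direction but missed the threshold, and none turned, with the 9 concerning Ccl6, Spink4 and Zg16 as given above. The mouse number as a replicate block changed no call among them, and moved the calls over all genes from 7413 to 8027 at day 1. At day 3 the block gave 7289 against 7545, and in crypts 562 against 614.

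Over all genes in crypts, 614 were called (409 lower, 205 higher). Leaving out 1 library gave 175 to 605 (121 to 376 lower, 54 to 229 higher), array weights gave 2100 (1118 and 982), edgeR 209 (157 and 52) and DESeq2 1200 (766 and 434). Library totals gave 5588 lower and 2206 higher at day 1. For the change between day 3 and crypts, leaving out 1 library gave 2500 to 4176 calls against 3837. Between day 3 and day 1, 4 genes were called, against 0 to 111 with 1 library left out, 37 with a pseudocount of 8, 23 with library totals, 47 with the mouse as a replicate block and 902 without mouse 2 labelled null, and of the 9 genes the last 2 settings called 1 and 2. Between day 1 and crypts, 0 of the 9 were called, 0 to 2 with 1 library left out and 4 with the mouse as a replicate block. Of the 10 most alike genes, 0 were shared with WT libraries alone. The WT changes from crypts to day 3 were lower on TMM scaling than in CPM for all 9 genes, with Spink4 at -0.43 instead of -0.12.

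Among the changes of the genotype difference of the 9 genes, directions turned only where the value was not called. Between day 1 and crypts, Ccl6 (-0.06) went to values between -0.57 and 0.92 with 1 library left out, to 0.28 with a pseudocount of 8 and to 0.43 without mouse 2, and Ccl9 (-0.27) ranged from -0.62 to 0.04, with 0.0385 without null-labelled crypt library 2. Spink4 (-0.63) ranged from -1.04 to 0.02 between day 3 and crypts, with 0.0198 without that library, and from -0.19 to 0.82 between day 3 and day 1. The cause was not tested. Depth limits Tpsg1, Ccl6 and Ccl9 in null-labelled libraries, where counts were lowest.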
